A study of Mus musculus with 8 samples.

Results

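The genes described here are 38 mouse genes of the actin contractile apparatus, of focal adhesions and of the target set of SRF (serum response factor). They were taken by symbol from a list and looked up among the 55450 gene identifiers of the count files, and each matched 1 identifier. Of the 38, 34 passed the filter on low counts and were tested among 14641 genes. Myl9, Tpm2, Lmod1 and Tgfb1i1 did not pass. They had 2 to 9, 1 to 5, 0 to 6 and 0 to 3 counts per library. A further 3, Actg2, Des and Myh10, lay under the count minimum in all 4 untreated libraries and passed only through the treated ones, so they are read below as values rather than as support.

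The RNA came from PyMT-1099 cells, a mouse mammary tumour line from the polyoma middle T model, and poly(A) RNA was sequenced. The 8 libraries form 4 groups of 2: Agps knockout cells after a 10-day exposure to 2 ng/ml TGF-β, untreated Agps knockout cells, parental cells (labelled WT) with the same TGF-β exposure, and untreated parental cells. All 4 groups grew in the same high-glucose medium with serum, and the knockout is of Agps, which encodes a peroxisomal enzyme of ether lipid synthesis. How the knockout was made, and whether its cells descend from 1 clone, is not given in the sources used here. No label states that the 2 libraries of a group were separate cultures. Each p-value rests on the spread between such libraries, pooled over the 4 groups and moderated across genes, and that spread may be technical. It was also uneven. Set against counting noise (chi-square per gene), replicates of treated parental cells differed least, at 4.58, against 14.6 to 18.5 in the other groups.

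Library totals ran from 17007268 to 21311831 counts. The share of counts on mitochondrially encoded genes ran from 2.36% to 4.31%. Agps itself had 43.9 and 35.6 CPM (CPM, the count of a gene scaled to a common library size, here with TMM factors) in knockout cells with TGF-β and 32.9 and 29.3 CPM in untreated knockout cells, against 265 and 266 CPM in parental cells with TGF-β and 357 and 329.8 CPM in untreated parental cells. It was low in the libraries labelled knockout and not absent. Of 6 mammary epithelial markers, Cdh1, Krt7, Krt8, Krt18 and Krt19 were tested in these cells, and Epcam is listed at 0 counts in all 8 libraries.

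Actin filaments carry force when non-muscle or smooth muscle myosin pulls on them, and tropomyosins, calponins, transgelins and caldesmon coat or bundle the filaments and set how myosin reaches them. Filaments end at focal adhesions, where talin, vinculin and LIM-domain adaptors couple them to integrins. SRF is a transcription factor that binds a DNA element called the CArG box. Its cofactors of the MRTF family are held in the cytoplasm by monomeric actin and released when actin polymerises, while cofactors of the TCF family (Elk1, Elk3 and Elk4) answer to growth factor signalling. In epithelial cells and fibroblasts, TGF-β is known for raising smooth muscle α-actin and other contractile genes during mesenchymal and myofibroblast conversion.

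The promoter windows of the genes are shown first because the CArG box is the element through which SRF acts. RefSeq windows (GRCm38.p6), 250 bases before to 50 bases after the annotated start, were at hand for 32 of the 38 genes. There was no window for Actg2, Tagln, Csrp2, Actb, Tgfb1i1 and Parva. An exact CArG box is a run of 6 A or T letters between CC and GG. The other strand of such a box has the same form, so 1 search covers both strands. One was found in 8 of these 32 genes, in any of their windows: Cnn2, Myl9, Myl6, Vcl, Srf, Fhl2, Actg1 and Filip1l. Of all 27025 mouse genes with such a window, 1.81% hold one (1.63% of 32851 windows). Allowing 1 G or C among the A and T letters gave 11 of 32 genes (34.4%), against 11.3% of all genes (9.98% of windows), and added Acta2, Tpm3 and Lpp. The letters GGAATG, the core of the TEAD element, searched on both strands and overlapping none of the boxes shown, were found in 11 of the 32 genes (34.4%), against 16.6% of all genes (14.7% of windows). Among those printed they stand, in lower case, in Vcl and Acta2, 143 and 146 bases before the start. The list holds known SRF targets by choice, so the shares are a description. The 6 windows printed below are examples, and boxes are more frequent among them than among the 32 genes. The windows of Tpm1, Tpm4, Csrp1 and Pdlim7, not printed, hold neither an exact box nor one with 1 G or C. Boxes are in capitals, exact ones in Srf, Cnn2, Vcl and Filip1l and ones with 1 G or C inside the core in Acta2. The Cnn1 window holds neither and no GGAATG, and the window of the first annotated Filip1l start, not printed, also holds none.
Srf (chr17:46556113-46556412, minus strand): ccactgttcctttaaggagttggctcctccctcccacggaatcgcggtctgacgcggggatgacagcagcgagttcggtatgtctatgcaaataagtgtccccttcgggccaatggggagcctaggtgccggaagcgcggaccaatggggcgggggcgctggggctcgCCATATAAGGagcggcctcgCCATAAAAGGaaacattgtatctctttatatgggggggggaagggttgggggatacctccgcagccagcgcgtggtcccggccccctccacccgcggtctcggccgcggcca
Cnn2 (chr10:79988350-79988649, plus strand): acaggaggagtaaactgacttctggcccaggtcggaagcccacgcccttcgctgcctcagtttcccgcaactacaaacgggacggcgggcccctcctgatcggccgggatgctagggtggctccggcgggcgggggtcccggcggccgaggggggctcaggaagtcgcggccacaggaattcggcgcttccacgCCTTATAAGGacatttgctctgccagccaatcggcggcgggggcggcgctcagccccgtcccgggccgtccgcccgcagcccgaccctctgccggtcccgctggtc
Vcl (chr14:20929148-20929447, plus strand): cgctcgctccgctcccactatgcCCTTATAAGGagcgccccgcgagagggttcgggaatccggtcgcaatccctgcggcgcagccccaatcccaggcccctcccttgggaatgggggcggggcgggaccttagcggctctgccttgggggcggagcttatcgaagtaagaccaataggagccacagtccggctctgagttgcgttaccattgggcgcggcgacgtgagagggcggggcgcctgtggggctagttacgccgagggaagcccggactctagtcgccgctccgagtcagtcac
Filip1l, second annotated start (chr16:57548992-57549291, plus strand): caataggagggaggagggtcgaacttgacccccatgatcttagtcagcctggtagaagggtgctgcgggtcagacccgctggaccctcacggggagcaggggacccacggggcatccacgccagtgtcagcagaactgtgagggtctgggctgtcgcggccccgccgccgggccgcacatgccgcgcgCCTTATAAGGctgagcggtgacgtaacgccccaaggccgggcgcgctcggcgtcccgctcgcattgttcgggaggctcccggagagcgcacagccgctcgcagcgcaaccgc
Acta2 (chr19:34255324-34255623, minus strand): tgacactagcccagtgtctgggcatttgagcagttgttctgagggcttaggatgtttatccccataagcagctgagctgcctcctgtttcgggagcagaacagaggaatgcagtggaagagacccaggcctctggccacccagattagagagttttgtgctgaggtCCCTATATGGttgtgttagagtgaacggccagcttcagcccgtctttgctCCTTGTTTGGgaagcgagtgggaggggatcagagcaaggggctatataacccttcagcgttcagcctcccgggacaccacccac
Cnn1 (chr9:22099003-22099302, plus strand): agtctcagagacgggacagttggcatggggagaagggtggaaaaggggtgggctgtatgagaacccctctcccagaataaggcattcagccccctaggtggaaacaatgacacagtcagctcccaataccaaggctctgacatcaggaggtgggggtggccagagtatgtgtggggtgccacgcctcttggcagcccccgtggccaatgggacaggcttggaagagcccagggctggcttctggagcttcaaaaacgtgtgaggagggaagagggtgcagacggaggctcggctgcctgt
The Srf window has 2 boxes, starting 82 and 62 bases before the start. The box of Cnn2 starts 56 bases before the start, that of Vcl 227 bases before and that of Filip1l 62 bases before. Cnn2, Vcl and Filip1l carry the same box letters. The Acta2 window's near matches begin 84 and 34 bases before the start. A match in these letters is not a site of binding, and a window without one says nothing about more distant elements.

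The first question was what TGF-β did to these genes in each line. In both lines most of them rose with TGF-β, and the steepest rises were those of Tagln and Acta2, smooth muscle genes with under 2 CPM in every untreated library. Cytoskeletal genes already expressed in untreated cells, such as Tpm1, Actn1, Cald1 and Filip1l, rose as well, by 2.12-fold to 7.50-fold in knockout cells and 3.83-fold to 5.50-fold in parental cells. Mylk and Csrp2 fell in both lines. The 38 genes together took 2.17% and 2.18% of all counts in knockout cells with TGF-β, against 1.23% and 1.14% in untreated knockout cells. In parental cells they took 2.74% and 2.73% with TGF-β, against 1.35% and 1.24% without it.

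Genes were tested with edgeR's quasi-likelihood test, and a gene is called changed where its p, adjusted by Benjamini-Hochberg over all 14641 genes, was under 0.05. In knockout cells 25 of the 34 tested genes rose and 4 fell, beside 20.9% and 20.6% of all genes that were higher and lower (41.4% in either direction). In parental cells 27 rose and 2 fell, beside 21.3% of all genes higher and 21.2% lower (42.5% in either direction). The median log2 fold change of the 34 was 0.87 in knockout cells and 1.02 in parental cells, against 0.00 and 0.01 over all genes. Without Actg2, Des and Myh10, which passed the count filter only through treated libraries, 22 of 31 rose and 4 fell in knockout cells, with a median of 0.60, and 24 rose and 2 fell in parental cells, with a median of 0.88. Both treated libraries lay above both untreated ones for 28 of the 34 genes in knockout cells and below them for 5, beside 34.5% and 34.3% of all genes (68.8% in either direction). In parental cells this held for 30 and 4 of the 34, beside 36.8% and 35.3% of all genes (72.1%). In knockout cells 23 of the 25 rises and all 4 falls, and in parental cells 24 of the 27 rises and both falls, were called whichever library was left out. Mammary epithelial markers moved in the same comparisons. Of 5 tested, 1 rose and 2 fell in knockout cells, and 1 rose and 4 fell in parental cells. Their summed level was 3315 and 3541 CPM in knockout cells with TGF-β, against 4578 and 4241 CPM in untreated knockout cells, and 3362 and 3582 CPM in parental cells with TGF-β, against 6512 and 5924 CPM without it. Their part in the changes of the contractile genes was not tested. RNA was taken from whole cultures, so a change in RNA per cell and a change in the share of cells that express a gene cannot be told apart.

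**Figure D1:**
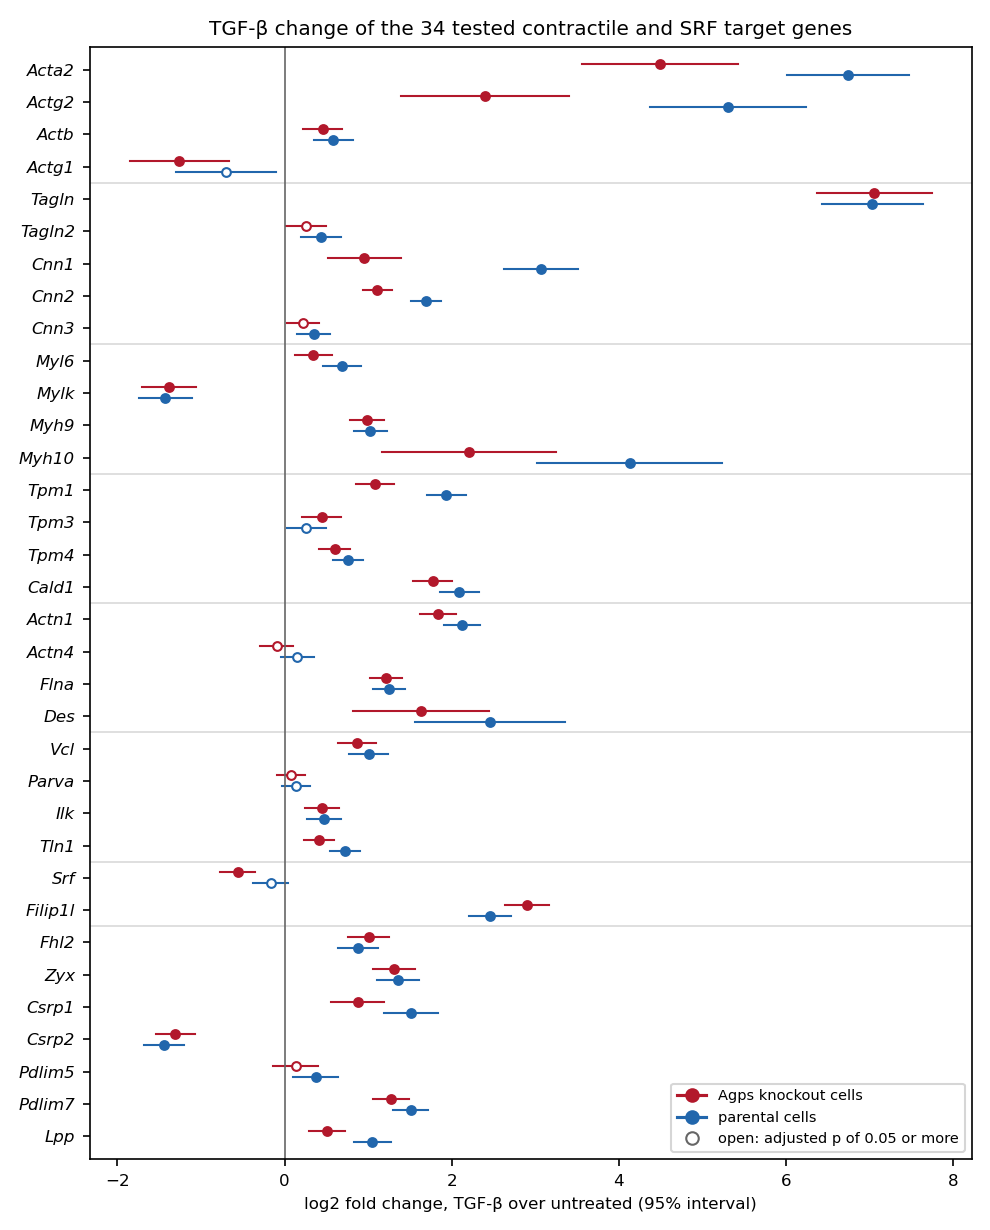
Log2 fold change of the 34 tested genes with TGF-β over untreated (horizontal axis), in Agps knockout cells (red, upper point of each pair) and parental cells (blue, lower point), with 95% intervals; open points did not pass an adjusted p of 0.05. Genes are ordered by role, separated by grey lines. Tagln lies at 7.06 and 7.04 in the 2 lines, while Acta2, Actg2 and Cnn1 lie further left in knockout cells.

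Among the 4 actins, those of smooth muscle moved most. Acta2 (ENSMUSG00000035783, GRCm38 chromosome 19, 34241090 to 34255590) encodes smooth muscle α-actin, the usual marker of myofibroblasts. Acta2 had 10.1 and 5.04 CPM in knockout cells with TGF-β, against 0.193 and 0.464 CPM in untreated knockout cells. Parental Acta2 levels were 73.9 and 76.6 CPM with TGF-β, against 0.791 and 0.586 CPM without it. Treated libraries of both lines stood above all untreated ones, and the parental treated libraries stood above both knockout ones. Acta2 rose by 4.49 (standard error 0.42, adjusted p = 5.42e-06) on the log2 scale in knockout cells and by 6.75 (standard error 0.33, adjusted p = 2.92e-08) in parental cells, 22.5-fold and 108-fold. Its treated knockout libraries differed from each other, and the knockout value was 3.90 without the first of them and 5.25 without the second untreated knockout library.

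Actg2 encodes smooth muscle γ-actin. Actg2 had 2.68 and 1.33 CPM in knockout cells with TGF-β, against 0.290 and 0.464 CPM in untreated knockout cells. Parental Actg2 levels were 10.7 and 9.59 CPM with TGF-β, against 0.369 and 0.117 CPM without it. Its parental treated libraries were likewise the highest of the 8, and its untreated libraries held 2 to 10 counts. Actg2 rose by 2.40 (standard error 0.46, adjusted p = 0.00126) in knockout cells and by 5.31 (standard error 0.43, adjusted p = 1.52e-06) in parental cells. The knockout value was 1.80 without the first treated knockout library, and the parental value was 6.35 without the first untreated parental library.

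Actb encodes the β-actin found in every cell. Actb had 3669.8 and 3855 CPM in knockout cells with TGF-β, against 2829 and 2646 CPM in untreated knockout cells. Parental Actb levels were 5117 and 4811 CPM with TGF-β, against 3604 and 3027 CPM without it. Treated libraries lay above untreated ones within each line, and the parental treated libraries were the highest of the 8. Actb rose by 0.46 (standard error 0.11, adjusted p = 0.00442) in knockout cells and by 0.58 (standard error 0.11, adjusted p = 9.52e-04) in parental cells.

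Actg1, the cytoplasmic γ-actin, was counted at a low level. Actg1 had 1.52 and 2.27 CPM in knockout cells with TGF-β, against 4.59 and 4.45 CPM in untreated knockout cells. Parental Actg1 levels were 2.23 and 2.56 CPM with TGF-β, against 3.11 and 4.69 CPM without it. Treated libraries were the lower ones in both lines. Actg1 fell by 1.26 (standard error 0.27, adjusted p = 0.00284) on the log2 scale in knockout cells, and its change in parental cells was -0.70 (standard error 0.27, adjusted p = 0.0587), short of the threshold. Of the 50-base stretches of its transcripts, 37.4% are shared with other annotated genes, 33.2% with the pseudogene Gm12715, so how reads were assigned can set this count, and it is not read as the level of γ-actin.

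Transgelins and calponins bind along actin filaments. Tagln (ENSMUSG00000032085, GRCm38 chromosome 9, 45929619 to 45936058) encodes transgelin, also called SM22α, an early smooth muscle marker. Tagln had 96.5 and 56.7 CPM in knockout cells with TGF-β, against 0.628 and 0.510 CPM in untreated knockout cells. Parental Tagln levels were 247 and 221 CPM with TGF-β, against 1.74 and 1.82 CPM without it. Every treated library lay far above every untreated one, and the parental libraries lay above the knockout ones in both states. Tagln rose by 7.06 (standard error 0.31, adjusted p = 1.27e-08) in knockout cells and by 7.04 (standard error 0.27, adjusted p = 5.85e-09) in parental cells, 133-fold and 131-fold. Of the exonic length of Tagln, 67.9% lies under exons of genes on the opposite strand. The antisense gene Gm48529 shares 55.4% of the 50-base stretches of Tagln. Gm48529 had 1.52 and 2.22 CPM in knockout cells with TGF-β, against 1.16 and 1.25 CPM in untreated knockout cells. Parental Gm48529 levels were 2.60 and 2.50 CPM with TGF-β, against 1.95 and 1.11 CPM without it. Both untreated knockout libraries held more Gm48529 than Tagln. Of the untreated parental libraries, the first held more Gm48529 than Tagln and the second held less. Untreated Tagln levels enter its fold changes and its untreated difference between the lines. How far reads of Gm48529 are part of those levels was not tested. Whether counting used strand is not given in the sources used here.

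Cnn1 (ENSMUSG00000001349, GRCm38 chromosome 9, 22099216 to 22109630) encodes the smooth muscle calponin, which restrains the myosin ATPase. Cnn1 had 5.16 and 4.10 CPM in knockout cells with TGF-β, against 2.37 and 2.41 CPM in untreated knockout cells. Parental Cnn1 levels were 14.4 and 14.2 CPM with TGF-β, against 1.58 and 1.82 CPM without it. The parental treated libraries stood apart above all others, and the knockout treated libraries lay between them and the untreated ones. Cnn1 rose by 0.96 (standard error 0.20, adjusted p = 0.00236) in knockout cells and by 3.07 (standard error 0.20, adjusted p = 2.68e-07) in parental cells.

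Cnn2 encodes a calponin of smooth muscle and non-muscle cells. Cnn2 had 211 and 204 CPM in knockout cells with TGF-β, against 97.7 and 94.1 CPM in untreated knockout cells. Parental Cnn2 levels were 298 and 298 CPM with TGF-β, against 94.4 and 89.2 CPM without it. The libraries fell into the same order as for Cnn1, with untreated libraries of both lines close together. Cnn2 rose by 1.11 (standard error 0.08, adjusted p = 6.15e-07) in knockout cells and by 1.70 (standard error 0.08, adjusted p = 2.46e-08) in parental cells. The other two of the group, Tagln2 and Cnn3, rose in parental cells by 0.44 and 0.35 and did not pass in knockout cells, at 0.26 and 0.22. The difference between the lines did not pass for either. The parental call of Tagln2 was lost without the second untreated parental library (0.31). That of Cnn3 was lost without the first untreated one (0.31), the first treated one (0.36) or the second treated one (0.33).

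Of the 5 myosin genes, 4 were tested. Myh10, the heavy chain of non-muscle myosin IIB, was rare. Myh10 had 0.961 and 1.05 CPM in knockout cells with TGF-β, against 0.290 and 0.139 CPM in untreated knockout cells. Parental Myh10 levels were 1.80 and 2.32 CPM with TGF-β, against 0.158 and 0.0586 CPM without it. Treated libraries were higher in both lines, and the untreated libraries held 1 to 6 counts. Myh10 rose by 2.20 (standard error 0.47, adjusted p = 0.00289) in knockout cells and by 4.13 (standard error 0.50, adjusted p = 4.64e-05) in parental cells. Those values were 2.79 without the first untreated knockout library and 4.98 without the first untreated parental library. Myh9, the heavy chain of non-muscle myosin IIA, rose by 0.99 in knockout cells and 1.03 in parental cells. Myl6, an essential light chain, rose by 0.35 and 0.69. The knockout call of Myl6 was lost without the first (0.35) or second (0.34) treated knockout library or the second untreated one (0.29).

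Mylk, which encodes myosin light chain kinase, went the other way. It had 24.8 and 19.7 CPM in knockout cells with TGF-β, against 54.3 and 61.8 CPM in untreated knockout cells, and 26.3 and 29.9 CPM in parental cells with TGF-β, against 67.4 and 83.8 CPM without it. All 4 treated libraries lay below all 4 untreated ones. Mylk fell by 1.38 (standard error 0.15, adjusted p = 1.36e-05) in knockout cells and by 1.43 (standard error 0.14, adjusted p = 1.03e-05) in parental cells. It is named here, as is Csrp2, because these were the only genes of the list that fell in parental cells, a choice made after their values were seen. The regulatory light chain gene Myl9 ran from 0.117 to 0.536 CPM over the 8 libraries.

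Tropomyosins wind along the filament, and caldesmon links actin to myosin and tropomyosin. Tpm1 (ENSMUSG00000032366, GRCm38 chromosome 9, 67022590 to 67049406) encodes α-tropomyosin. Tpm1 had 1534 and 1357 CPM in knockout cells with TGF-β, against 719 and 641 CPM in untreated knockout cells. Parental Tpm1 levels were 2948 and 3044 CPM with TGF-β, against 826 and 736 CPM without it. The knockout treated libraries lay about midway, on the log scale, between the untreated libraries and the parental treated ones. Tpm1 rose by 1.09 (standard error 0.10, adjusted p = 5.62e-06) in knockout cells and by 1.94 (standard error 0.11, adjusted p = 6.60e-08) in parental cells.

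Tpm4 encodes a non-muscle tropomyosin. Tpm4 had 786 and 756 CPM in knockout cells with TGF-β, against 526 and 492 CPM in untreated knockout cells. Parental Tpm4 levels were 1234 and 1237 CPM with TGF-β, against 754 and 705 CPM without it. Knockout cells with TGF-β were close to untreated parental cells. Tpm4 rose by 0.60 (standard error 0.08, adjusted p = 1.35e-04) in knockout cells and by 0.76 (standard error 0.08, adjusted p = 2.13e-05) in parental cells. Tpm3 had 208 and 205 CPM in knockout cells with TGF-β, against 165 and 138 CPM in untreated knockout cells. Parental Tpm3 levels were 244 and 246 CPM with TGF-β, against 222 and 188 CPM without it. Tpm3, a further tropomyosin of non-muscle and slow muscle cells, was lowest in the untreated knockout libraries. It rose by 0.44 (standard error 0.11, adjusted p = 0.00563) in knockout cells, a call lost without the second untreated knockout library (0.32). Its parental value was 0.26 (standard error 0.11, adjusted p = 0.0722), short of the threshold, which it passed with upper quartile scaling and without the first untreated parental library (0.37) or either untreated knockout library. Of its 50-base stretches 23.2% are shared, most with Tpm3-rs7.

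Cald1 had 3151 and 2817 CPM in knockout cells with TGF-β, against 933 and 815 CPM in untreated knockout cells. Parental Cald1 levels were 3355 and 3723 CPM with TGF-β, against 839 and 820.2 CPM without it. Treated libraries of both lines stood near each other, well above the untreated ones, for this gene of caldesmon. Cald1 rose by 1.77 (standard error 0.11, adjusted p = 1.29e-07) in knockout cells and by 2.09 (standard error 0.11, adjusted p = 4.17e-08) in parental cells. Tpm2 and Lmod1, a tropomyosin and an actin nucleator of muscle, had 1 to 5 and 0 to 6 counts per library and were not tested.

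Actinins and filamin crosslink filaments. Actn1 had 1313 and 1236 CPM in knockout cells with TGF-β, against 371 and 339.9 CPM in untreated knockout cells. Parental Actn1 levels were 1613 and 1551 CPM with TGF-β, against 387 and 337 CPM without it. The gene of α-actinin-1 was high in treated libraries of both lines, whose ranges did not meet. Actn1 rose by 1.84 (standard error 0.10, adjusted p = 5.08e-08) in knockout cells and by 2.13 (standard error 0.10, adjusted p = 2.10e-08) in parental cells. Flna, of filamin A, rose by 1.22 and 1.25, whereas Actn4, of α-actinin-4, stayed within 572 to 685 CPM in all 8 libraries and did not pass in either line (-0.09 and 0.15). Des, of the muscle intermediate filament desmin, was near the limit of the filter. Des had 1.06 and 1.33 CPM in knockout cells with TGF-β, against 0.338 and 0.418 CPM in untreated knockout cells. Parental Des levels were 1.38 and 1.43 CPM with TGF-β, against 0.211 and 0.293 CPM without it. Its treated libraries were the higher ones in both lines. Des rose by 1.64 (standard error 0.37, adjusted p = 0.00395) in knockout cells and by 2.46 (standard error 0.41, adjusted p = 5.27e-04) in parental cells.

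At adhesions, talin (Tln1) binds integrins and vinculin (Vcl) reinforces its link to actin, while Ilk and Parva form part of a scaffold on the integrin tail. Vcl had 416 and 421 CPM in knockout cells with TGF-β, against 204 and 256 CPM in untreated knockout cells. Parental Vcl levels were 611 and 578 CPM with TGF-β, against 297 and 295 CPM without it. Treated libraries lay above untreated ones in each line, with the parental libraries higher in both states. Vcl rose by 0.87 (standard error 0.10, adjusted p = 4.27e-05) in knockout cells and by 1.01 (standard error 0.10, adjusted p = 1.31e-05) in parental cells. Tln1 rose by 0.41 in knockout cells and 0.72 in parental cells, and Ilk by 0.45 and 0.47. Parva stayed within 228 to 287 CPM and passed in neither line. Exons of Ap3m1 on the opposite strand cover 25.5% of the exonic length of Vcl. Exons of opposite-strand genes cover 89.7% of that of Ilk, and Taf10 shares 59.4% of the 50-base stretches of Ilk. Without strand, reads of such overlapping genes cannot be told apart.

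LIM-domain adaptors sit at adhesions and along stress fibres, and several are SRF targets themselves. Fhl2 had 102 and 109.8 CPM in knockout cells with TGF-β, against 48.2 and 57.0 CPM in untreated knockout cells. Parental Fhl2 levels were 138 and 119.5 CPM with TGF-β, against 72.7 and 67.1 CPM without it. The untreated parental libraries of Fhl2 lay above the untreated knockout ones, and treatment raised both. Fhl2 rose by 1.01 (standard error 0.11, adjusted p = 1.97e-05) in knockout cells and by 0.88 (standard error 0.11, adjusted p = 5.85e-05) in parental cells.

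Csrp1 had 181 and 175 CPM in knockout cells with TGF-β, against 111 and 83.6 CPM in untreated knockout cells. Parental Csrp1 levels were 373 and 388 CPM with TGF-β, against 152 and 114 CPM without it. This LIM protein gene was highest in parental treated cells, while knockout treated cells were only a little above untreated parental cells. Csrp1 rose by 0.88 (standard error 0.15, adjusted p = 4.81e-04) in knockout cells and by 1.52 (standard error 0.15, adjusted p = 6.88e-06) in parental cells. Pdlim7 had 113 and 112 CPM in knockout cells with TGF-β, against 45.0 and 48.1 CPM in untreated knockout cells. Parental Pdlim7 levels were 166 and 168 CPM with TGF-β, against 63.3 and 54.0 CPM without it. For Pdlim7, of the adaptor enigma, both treated groups stood clear of the untreated ones. Pdlim7 rose by 1.27 (standard error 0.10, adjusted p = 9.33e-07) in knockout cells and by 1.51 (standard error 0.10, adjusted p = 2.48e-07) in parental cells.

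Of the other LIM adaptors, Zyx (zyxin) rose by 1.31 in knockout cells and 1.36 in parental cells, and Lpp by 0.51 and 1.05. Pdlim5 passed only in parental cells, at 0.37 against 0.13 in knockout cells, and that call was lost without the first untreated (0.25), the first treated (0.35) or the second treated (0.40) parental library. Its difference between the lines did not pass. Csrp2, a relative of Csrp1 in smooth muscle, fell by 1.31 (standard error 0.11, adjusted p = 1.77e-06) in knockout cells and by 1.44 (standard error 0.11, adjusted p = 9.62e-07) in parental cells. It had 18.0 and 16.9 CPM in knockout cells with TGF-β, against 45.4 and 41.0 CPM in untreated knockout cells, and 16.6 and 16.2 CPM in parental cells with TGF-β, against 45.9 and 43.3 CPM without it. All treated libraries lay below all untreated ones, and the lines stood close to each other in both states.

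Filip1l (ENSMUSG00000043336, GRCm38 chromosome 16, 57353093 to 57573126), named for its likeness to a filamin A interacting protein, also rose in both lines. Filip1l had 251 and 233 CPM in knockout cells with TGF-β, against 32.4 and 32.1 CPM in untreated knockout cells. Parental Filip1l levels were 357 and 401 CPM with TGF-β, against 76.6 and 60.9 CPM without it. Untreated knockout cells held the lowest level and treated parental cells the highest. Filip1l rose by 2.91 (standard error 0.12, adjusted p = 7.97e-09) in knockout cells and by 2.46 (standard error 0.12, adjusted p = 2.23e-08) in parental cells.

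Srf itself (ENSMUSG00000015605, GRCm38 chromosome 17, 46548329 to 46556175) did not rise in either line. Srf had 36.7 and 36.7 CPM in knockout cells with TGF-β, against 52.3 and 56.1 CPM in untreated knockout cells. Parental Srf levels were 55.4 and 50.5 CPM with TGF-β, against 60.9 and 58.0 CPM without it. The 2 knockout treated libraries were the lowest of the 8, and the other 6 lay between 50.5 and 60.9 CPM. Srf fell by 0.56 (standard error 0.10, adjusted p = 6.36e-04) with TGF-β in knockout cells, and its change in parental cells was -0.17 (standard error 0.10, adjusted p = 0.189).

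**Figure D2:**
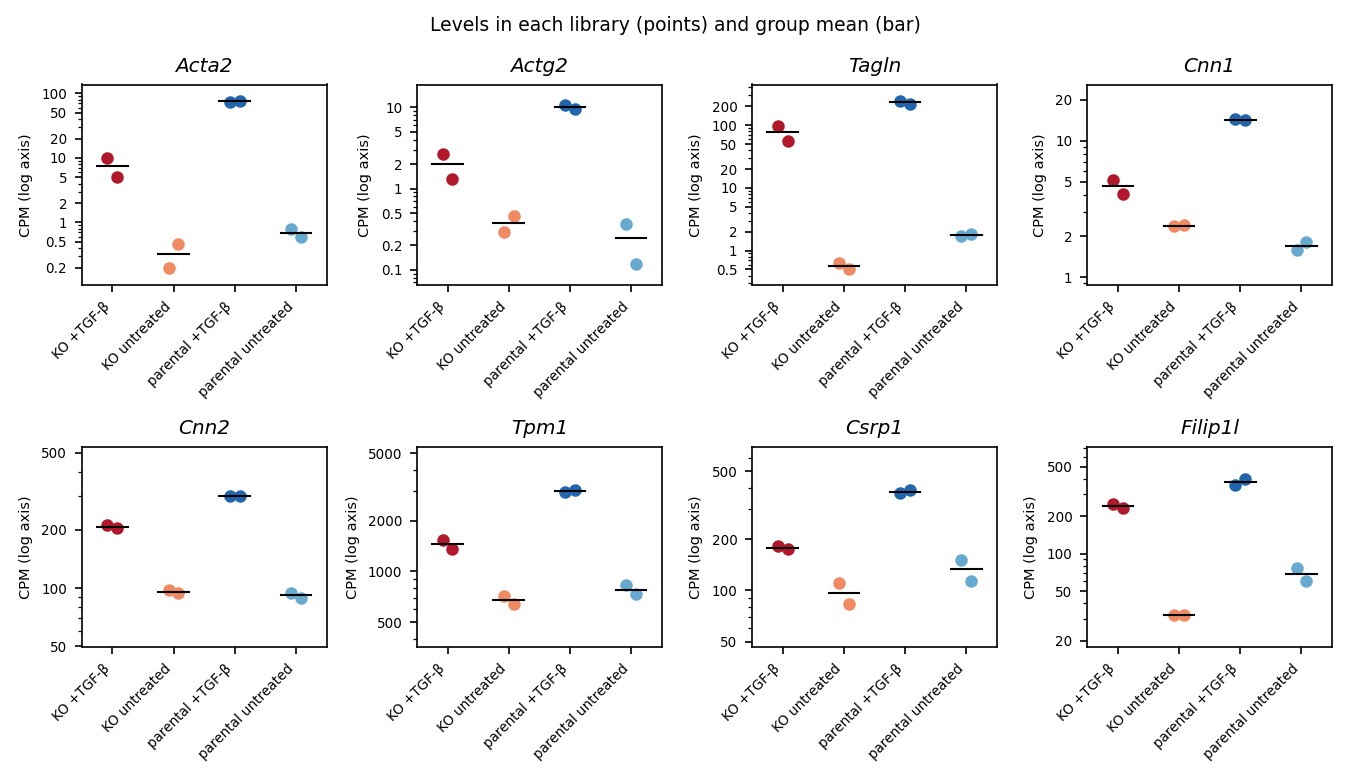
CPM in each library (points, log axis) for 8 genes, with the mean of the 2 libraries of a group as a bar; groups run from knockout with TGF-β to untreated parental cells. In all 8 panels the parental treated libraries are the highest; Acta2 reaches 73.9 and 76.6 CPM there, against 10.1 and 5.04 CPM in treated knockout libraries.

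The next comparison set the lines side by side after TGF-β. Most of the list was lower in knockout cells, with the largest gaps in the smooth muscle genes. Acta2 was 0.101 of the parental level, Actg2 0.200, Cnn1 0.325 and Tagln 0.327. Tpm1 and Csrp1 were at 0.483 and 0.468 of it. Myh9, Flna, Cald1 and Des, in contrast, did not pass the test.

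Of the 34 tested genes, 20 were lower and 0 were higher in knockout cells with TGF-β, by edgeR's quasi-likelihood test, beside 11.1% of all genes lower and 6.82% higher (17.9% in either direction). At an unadjusted p under 0.05 the counts were 29 lower and 0 higher, with no share over all genes to set beside them. DESeq2 called 18 lower and 0 higher, beside 2228 of all 14641 tested genes called in either direction. The median log2 fold change was -0.36 against 0.01 over all genes, and 32 of the 34 values were negative. In 31 genes both knockout libraries lay below both parental ones, in 2 genes above them, and in 1 gene they overlapped. Over all genes 31.0% lay below and 30.3% above (61.3% in either direction). Without Actg2, Des and Myh10 the count was 19 of 31. Of the 5 tested epithelial markers, 3 were lower and 0 higher in this comparison by edgeR, with 3 lower and 1 higher at an unadjusted p under 0.05 and 3 lower and 0 higher by DESeq2. Their part was not tested. The count of 20 depended on single libraries. It was 12 without the first and 11 without the second treated knockout library, and 10 without the first and 13 without the second treated parental library. Acta2, Actg2, Tagln, Cnn1, Cnn2, Tpm1, Tpm4, Csrp1, Pdlim7 and Filip1l were called in each of these.

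By role, 3 of 4 actins were lower in treated knockout cells. Among them is Actg2, which passed the count filter only through treated libraries and is given as a value. Acta2 stood -3.31 (standard error 0.24, adjusted p = 6.21e-06) on the log2 scale, Actg2 -2.32 (standard error 0.30, adjusted p = 3.68e-04) and Actb -0.40 (standard error 0.11, adjusted p = 0.0224) from parental cells. Without the first treated knockout library Acta2 gave -3.90 and Actg2 -2.92.

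All 5 transgelins and calponins were lower. Cnn1 differed by -1.62 (standard error 0.17, adjusted p = 1.08e-04), Tagln by -1.61 (standard error 0.19, adjusted p = 1.81e-04) and Cnn2 by -0.52 (standard error 0.08, adjusted p = 9.76e-04). Tagln2 and Cnn3 differed by -0.38 and -0.29. No tested myosin gene passed by edgeR, with Myh9 at 0.05 and Mylk at -0.33. Myh10 stood at -1.03 (standard error 0.33, adjusted p = 0.0532) and Myl6 at -0.30 (standard error 0.10, adjusted p = 0.0652).

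Of the tropomyosins and caldesmon, Tpm1 (-1.05, standard error 0.10, adjusted p = 5.89e-05) and Tpm4 (-0.68, standard error 0.08, adjusted p = 2.65e-04) were lower, while Tpm3 and Cald1 were at -0.25 and -0.25 and did not pass. Among crosslinkers Actn1 was lower by 0.31 (standard error 0.09, adjusted p = 0.0424). Of the core adhesion genes Vcl (-0.51, standard error 0.10, adjusted p = 0.00612), Ilk (-0.31) and Tln1 (-0.27) were lower and Parva, at -0.21, did not pass.

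Among LIM adaptors Csrp1 (-1.09, standard error 0.14, adjusted p = 4.12e-04), Pdlim7 (-0.57, standard error 0.09, adjusted p = 0.00172), Pdlim5 (-0.59, standard error 0.12, adjusted p = 0.00667) and Zyx (-0.42, standard error 0.11, adjusted p = 0.0239) were lower. Fhl2 and Lpp were both at -0.28 and Csrp2 at 0.09, without passing. Filip1l was lower by 0.65 (standard error 0.11, adjusted p = 0.00204) and Srf by 0.53 (standard error 0.10, adjusted p = 0.00328). The Srf call was lost without the first treated parental library (-0.46).

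The calls of Actb, Tagln2, Cnn3, Actn1, Ilk, Tln1 and Zyx were each lost without any 1 of the 4 treated libraries, at values between -0.23 and -0.46. With RLE size factors Cnn3, Actn1 and Tln1 were not called, and with upper quartile scaling Tln1 was not. Vcl was not called without the first treated parental library (-0.47) or either treated knockout library (-0.50 for each). Pdlim5 was not called without the first treated parental (-0.56) or the second treated knockout library (-0.49).

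Whole chromosomes also differed between the lines. The median log2 difference, knockout minus parental, was -0.47 with TGF-β and -0.46 untreated over 810 tested genes of chromosome 8, and -0.30 and -0.28 over 764 genes of chromosome 3. Other autosomes ranged from -0.06 to 0.09 with TGF-β and, chromosome 15 at -0.17 apart, from -0.05 to 0.07 untreated. Tpm4 lies on chromosome 8, and Cnn3, Tpm3 and Pdlim5 lie on chromosome 3. For these 4 a difference of the gene and one of its chromosome cannot be told apart. Without these 4 genes, 17 members were lower with TGF-β and 4 untreated. Acta2, Actg2, Tagln, Cnn1 and Tpm1 lie on chromosomes 19, 6, 9, 9 and 9. Genes from outside the list that are named below were not sorted by chromosome. For any of them on chromosome 8 or 3 the same limit holds.

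**Figure D3:**
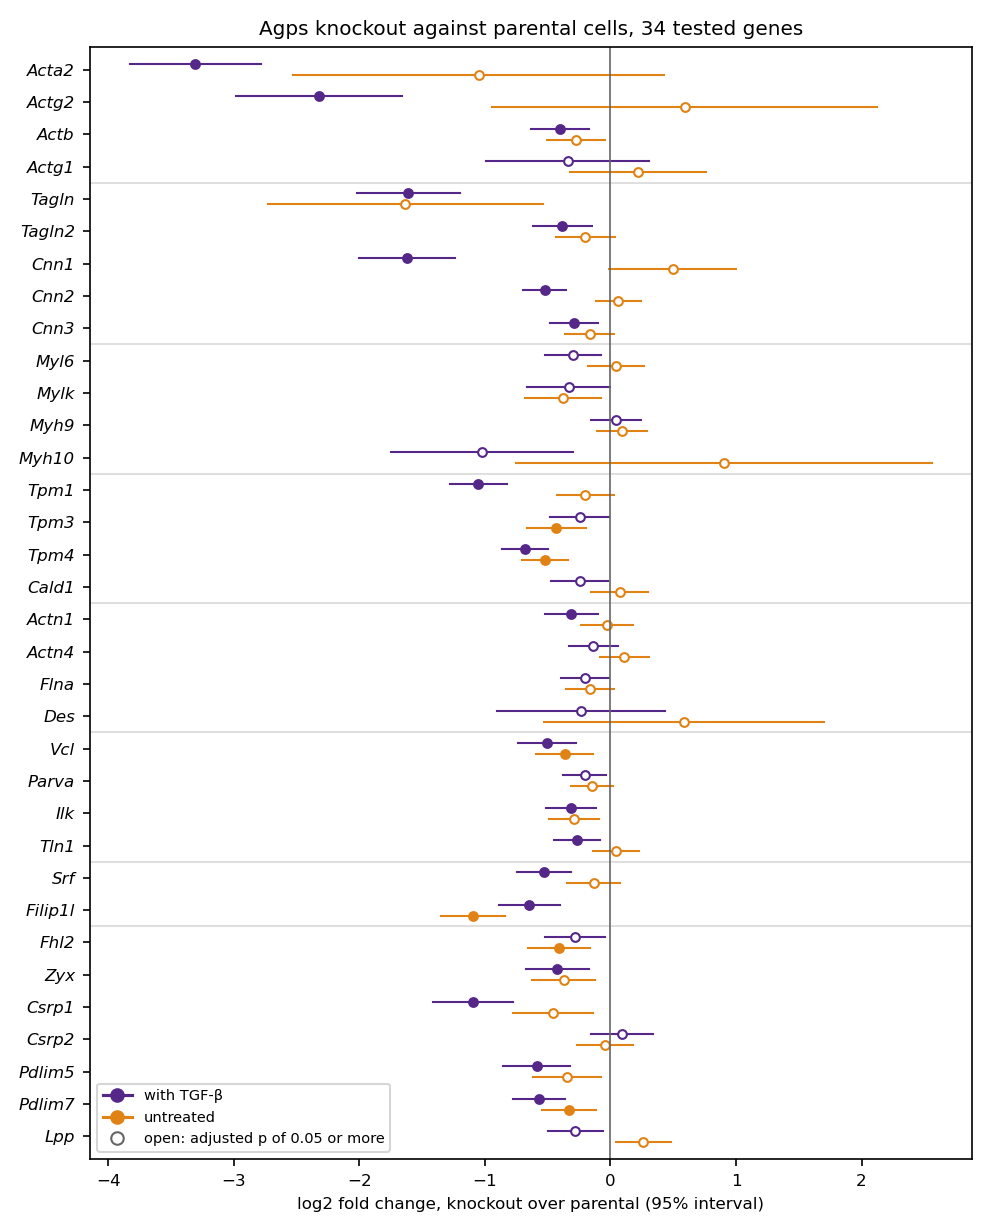
Log2 difference of the 34 tested genes, Agps knockout over parental cells (horizontal axis), with TGF-β (purple, upper point) and untreated (orange, lower point), with 95% intervals; open points did not pass an adjusted p of 0.05. With TGF-β 32 of 34 points lie left of 0, led by Acta2 at -3.31, and the untreated points of Filip1l and Tpm4 lie left of 0 at -1.09 and -0.52.

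Without TGF-β 6 genes of the list passed between the lines. The one with the lowest adjusted p was Filip1l, which was 0.468 of the parental level in untreated knockout cells (-1.09, standard error 0.12, adjusted p = 1.26e-04). Tpm4 (-0.52, standard error 0.08, adjusted p = 0.00177), Tpm3 (-0.43, standard error 0.11, adjusted p = 0.0194), Fhl2 (-0.41, standard error 0.11, adjusted p = 0.0315), Vcl (-0.36, standard error 0.10, adjusted p = 0.0397) and Pdlim7 (-0.33, standard error 0.10, adjusted p = 0.0437) were lower as well. The smooth muscle genes were too rare here for a narrow estimate. Acta2 differed by -1.05 (95% interval -2.53 to 0.43), Actg2 by 0.59 (95% interval -0.94 to 2.12) and Tagln by -1.63 (standard error 0.50, adjusted p = 0.0516). Single untreated libraries moved these values, Acta2 to -1.81 without the second knockout library and -0.57 without the first, and Actg2 to 1.63 without the first parental library and 0.03 without the second. Tagln ran from -1.79 to -1.49 when 1 library was left out. It was called by DESeq2 (adjusted p = 5.35e-04), with no count filter, with a replicate block (adjusted p = 0.00951), in a fit of the 4 untreated libraries (adjusted p = 0.0287), and without the first treated parental or either treated knockout library.

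In this comparison 6 of 34 genes were lower and 0 higher by edgeR, beside 8.94% of all genes lower and 4.72% higher (13.7% in either direction). Unadjusted p-values under 0.05 gave 13 lower and 1 higher, with no share over all genes to set beside them. DESeq2 called 8 lower and 0 higher, beside 1807 of all 14641 tested genes called in either direction. The libraries of the lines overlapped in 12 of the 34 genes, and in 19 both knockout libraries were the lower and in 3 the higher ones. Over all genes 26.3% were lower and 24.4% higher in this way (50.7% in either direction). All 5 tested epithelial markers were lower in untreated knockout cells, and their part in the other differences was not tested. Filip1l and Tpm4 were called whichever library was left out. Tpm3 was not called without the first untreated parental or the second untreated knockout library (-0.31 for each). Fhl2 was not called without the first untreated parental (-0.35), the first untreated knockout (-0.30) or the first treated knockout library (-0.41). Vcl was called without the second untreated knockout library and in no other such fit, where it ran from -0.21 to -0.37. Pdlim7 was called without the second untreated parental library and in no other, from -0.22 to -0.38. Both were also not called with upper quartile scaling, and Pdlim7 was not called by DESeq2 (adjusted p = 0.0524). In an edgeR fit of the 4 untreated libraries Tpm3, Fhl2, Vcl and Pdlim7 were not called. Their adjusted p there was 0.105, 0.0953, 0.133 and 0.155. These untreated libraries are the same ones against which TGF-β was measured above, so the comparisons are not independent of each other.

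Whether the response to TGF-β itself differed was tested as the difference of the log2 changes, knockout minus parental. Cnn1, Tpm1 and Cnn2 responded less in knockout cells, and 0 genes of the list responded more. Of all genes 1.15% had a lower and 1.25% a higher value in knockout cells (2.40% in either direction). At an unadjusted p under 0.05 edgeR gave 12 genes of the list lower and 1 higher, with no share over all genes to set beside them. DESeq2 called 5 lower and 0 higher, beside 482 of all 14641 tested genes called in either direction. The difference was -2.11 (standard error 0.29, adjusted p = 0.00362) for Cnn1, -0.85 (standard error 0.14, adjusted p = 0.0120) for Tpm1 and -0.59 (standard error 0.11, adjusted p = 0.0220) for Cnn2. Cnn1 rose 1.94-fold in knockout cells, against 8.40-fold in parental cells, and Tpm1 2.12-fold against 3.83-fold.

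Cnn1 was called without any 1 of the 8 libraries. Cnn2 was not called without either treated parental library, either treated knockout library, the second untreated parental or the first untreated knockout library (-0.55 to -0.61). Tpm1 was not called without the second treated parental (-0.82) or the second treated knockout library (-0.75).

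For the genes with the largest fold changes the difference was poorly bounded. It was -2.26 for Acta2 (95% interval -4.01 to -0.51, adjusted p = 0.210) and -2.91 for Actg2 (95% interval -4.59 to -1.23, adjusted p = 0.0817). Leaving out 1 library at a time gave -2.84 to -1.50 for Acta2, with adjusted p of 0.0433 without the first treated knockout library and 0.655 without the second untreated one. Actg2 gave -3.95 to -2.35, without the first and the second untreated parental library, and was not called in any such fit, with adjusted p from 0.0548 to 0.260. DESeq2 called Actg2 (adjusted p = 0.0114) and not Acta2 (adjusted p = 0.112). Tagln gave 0.02 (95% interval -0.80 to 0.84), with the knockout at -1.61 from parental cells after TGF-β and -1.63 untreated. Filip1l gave 0.45 (95% interval 0.10 to 0.80, adjusted p = 0.214), and Lpp and Csrp1 gave -0.54 and -0.64 with adjusted p of 0.0767 and 0.157.

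Per length, the make-up of the actin-binding families shifted with TGF-β. Levels per length are given in TPM, the share of a gene in all counts after division by exonic length. Tpm1 made up 37.7% and 35.7% of tropomyosin TPM in knockout cells with TGF-β, against 29.4% and 28.7% in untreated knockout cells. In parental cells it was 43.1% and 43.8% with TGF-β, against 25.2% and 24.4% without. Tpm4 held 56.9% and 58.5% in treated knockout cells, against 63.3% and 64.7% in untreated ones. Its parental shares were 53.1% and 52.4% with TGF-β, against 67.6% and 68.9% without. These shares are given as values, without a test.

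Actn1 took 70.2% and 69.4% of actinin TPM in treated knockout cells, against 37.5% and 37.9% in untreated ones. In parental cells Actn1 held 72.5% and 72.2% with TGF-β, against 40.4% and 39.5% without. Tagln supplied 19.4% and 11.1% of transgelin TPM in treated knockout cells and 30.6% and 28.5% in treated parental cells, and under 0.5% in the 4 untreated libraries. Cnn2 was the main calponin throughout, at 77.9% and 76.2% in treated knockout cells, 65.4% and 64.8% in untreated knockout cells, 78.2% and 78.1% in treated parental cells and 62.9% and 60.6% in untreated parental cells. Of the TPM counted for the 4 actins, Acta2 held 0.333% and 0.159% in treated knockout cells and 1.73% and 1.90% in treated parental cells, and Actb 97.7% to 99.9% in every library. These actin shares rest on the Actg1 count that is not read as a level, so the true share of Actb may be lower.

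**Figure D4:**
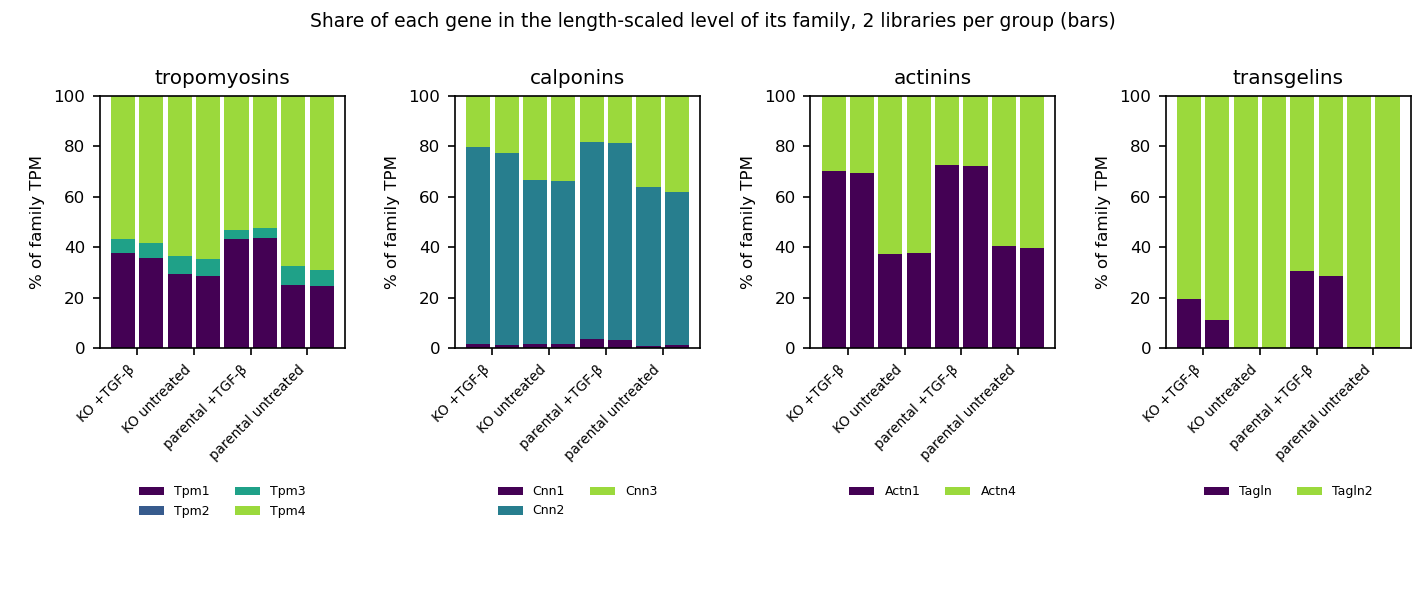
Share of each gene in the TPM of its family (vertical axis, %), 1 bar per library, 2 bars per group. Tpm1 and Actn1 take larger shares in the 4 treated libraries than in the 4 untreated ones, and Tagln reaches 30.6% of transgelin TPM in treated parental cells and 19.4% in treated knockout cells.

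The regulators of SRF were looked at next. Mrtfa, an actin-sensing SRF coactivator, had 87.3 and 92.8 CPM in knockout cells with TGF-β, against 34.7 and 40.9 CPM in untreated knockout cells. Parental Mrtfa levels were 80.1 and 77.0 CPM with TGF-β, against 51.8 and 45.1 CPM without it. It was higher in all 4 treated libraries, and rose by 1.25 (standard error 0.11, adjusted p = 3.05e-06) in knockout cells and 0.70 (standard error 0.11, adjusted p = 3.43e-04) in parental cells. Its relative Mrtfb fell by 0.44 in knockout cells (adjusted p = 0.00489) and was at -0.25 in parental cells, short of the threshold. Neither passed the test between the lines, with Mrtfa at 0.20 and Mrtfb at -0.12 after TGF-β. Myocd, the coactivator of cardiac and smooth muscle, had 0 to 1 counts per library.

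Of the TCF cofactors, Elk3 had 206 and 198 CPM in knockout cells with TGF-β, against 29.5 and 37.9 CPM in untreated knockout cells, and 161 and 157 CPM in parental cells with TGF-β, against 42.4 and 45.8 CPM without it. Treated libraries stood far above untreated ones, and Elk3 rose by 2.58 (standard error 0.12, adjusted p = 1.44e-08) in knockout cells and 1.85 (standard error 0.11, adjusted p = 1.80e-07) in parental cells. The rise was larger in knockout cells, by 0.73 (standard error 0.16, adjusted p = 0.0374). Elk1 rose by 0.50 in knockout cells and 0.58 in parental cells, and was lower in knockout cells with TGF-β (-0.58) and without it (-0.50).

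The immediate early genes, which SRF drives together with TCFs, went the opposite way from the contractile genes. Of 8 tested, 5 fell and 0 rose with TGF-β in knockout cells by edgeR, beside 20.6% and 20.9% of all genes. In parental cells 7 fell and 0 rose, beside 21.2% and 21.3% of all genes. For these 8, counts at an unadjusted p under 0.05 were the same, with no share over all genes to set beside them. DESeq2 gave 5 and 0 in knockout and 6 and 0 in parental cells. Over all 14641 tested genes DESeq2 called 5395 and 5462 in either direction. Fos had 73.5 and 47.4 CPM in knockout cells with TGF-β, against 273 and 334 CPM in untreated knockout cells, and 51.8 and 32.1 CPM in parental cells with TGF-β, against 378 and 356 CPM without it. Treated libraries were the lower ones in both lines for Fos, Egr1, Egr2 and Ier2. The falls in knockout and parental cells were -2.32 and -3.13 for Fos, -2.50 and -3.00 for Egr1, -2.73 and -3.79 for Egr2, and -1.53 and -2.37 for Ier2. Ier2 fell less in knockout cells, by a difference of 0.84 (standard error 0.19, adjusted p = 0.0418).

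**Figure D5:**
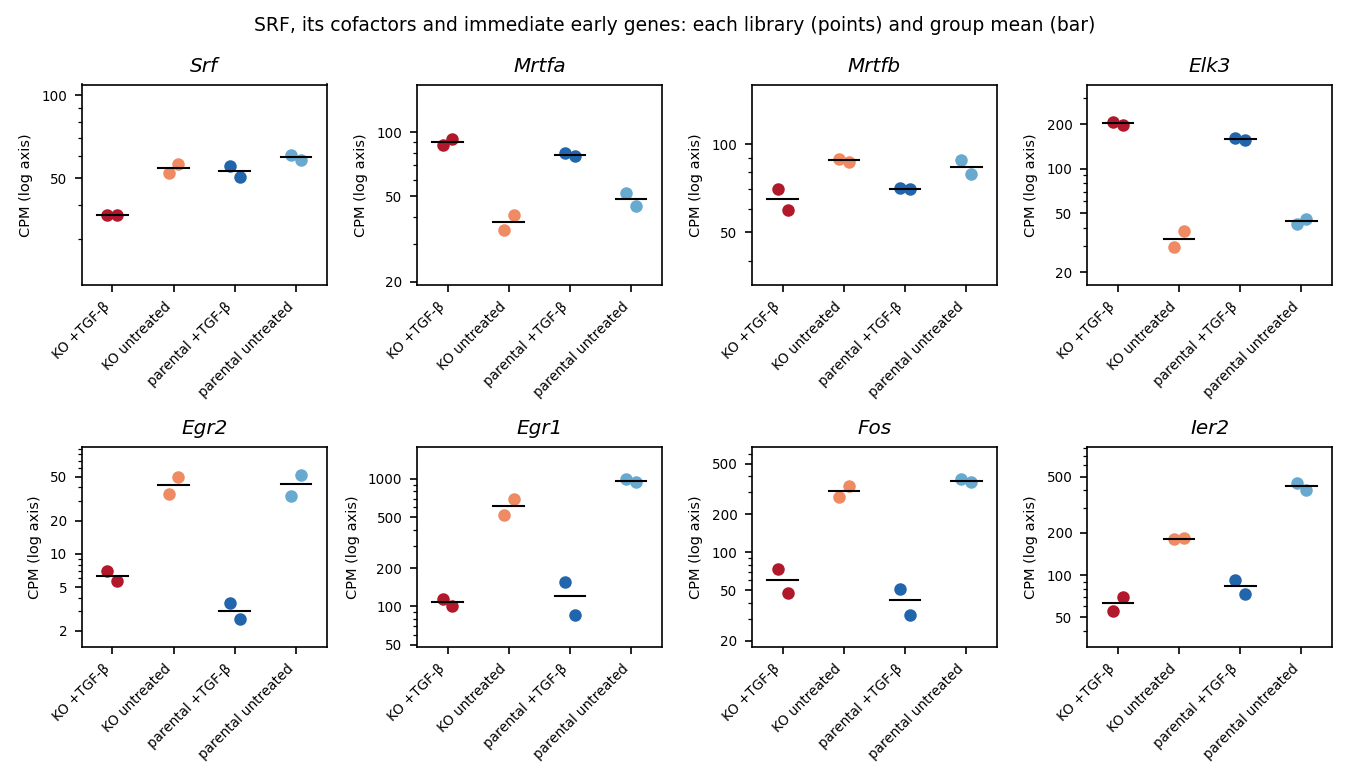
CPM in each library (points, log axis; bars are means of 2 libraries) for Srf, the cofactors Mrtfa, Mrtfb and Elk3, and the immediate early genes Egr2, Egr1, Fos and Ier2. Mrtfa and Elk3 are higher in the 4 treated libraries and the 4 immediate early genes lower; Srf is lowest, at 36.7 CPM, in both treated knockout libraries.

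Contractile and MRTF or SRF target genes outside the 38 were also counted. Of 24 listed, 23 matched an identifier and 18 were tested. With TGF-β 9 rose and 6 fell in knockout cells, beside 20.9% and 20.6% of all genes. In parental cells 11 rose and 4 fell, beside 21.3% and 21.2% of all genes. After TGF-β 1 was higher and 10 lower in knockout than in parental cells, beside 6.82% and 11.1% of all genes. Without TGF-β 2 were higher and 7 lower, beside 4.72% and 8.94% of all genes. Acta1, skeletal muscle α-actin, had 5.21 and 3.21 CPM in knockout cells with TGF-β, against 1.16 and 0.557 CPM in untreated knockout cells, and 24.2 and 22.6 CPM in parental cells with TGF-β, against 1.79 and 1.82 CPM without it. It had the same order of groups as Acta2, and was lower by 2.46 (standard error 0.23, adjusted p = 4.75e-05) in treated knockout cells. Ccn1, a secreted matricellular protein and a target shared by SRF and the YAP and TEAD factors, was lower in knockout cells with TGF-β (-1.14, standard error 0.10, adjusted p = 3.78e-05) and without it (-0.94, standard error 0.10, adjusted p = 1.58e-04). The chromosomes of Acta1 and Ccn1 were not set beside the medians by chromosome given above. For both, a difference of the gene and one of its chromosome was not told apart.

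Synpo, of the actin-bundling protein synaptopodin, moved in opposite directions. It had 27.8 and 23.6 CPM in knockout cells with TGF-β, against 37.0 and 42.6 CPM in untreated knockout cells, and 64.4 and 64.9 CPM in parental cells with TGF-β, against 14.8 and 22.2 CPM without it. Treatment lowered it in knockout cells (-0.63) and raised it in parental cells (1.81), a difference of -2.44 (standard error 0.23, adjusted p = 5.18e-04).

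Adhesion adaptors outside the 38 mostly rose with TGF-β. Of 17 tested, 12 rose and 1 fell in knockout cells, and 11 rose and 0 fell in parental cells. Counts at an unadjusted p under 0.05 in parental cells were 12 and 1, with no share over all genes to set beside them. There DESeq2 called 11 and 0, beside 5462 of all 14641 tested genes called in either direction. Over all genes edgeR called 20.9% higher and 20.6% lower in knockout cells, and 21.3% and 21.2% in parental cells. Parvb, a relative of Parva, rose by 3.67 (standard error 0.10, adjusted p = 6.89e-10) in knockout cells and 3.39 (standard error 0.10, adjusted p = 1.08e-09) in parental cells, while Parva itself passed in neither. Itgb1, the β1 integrin, rose by 1.16 and 1.51 and was lower in knockout cells with TGF-β (-1.39, standard error 0.09, adjusted p = 4.57e-06) and without it (-1.04, standard error 0.09, adjusted p = 3.79e-05). For Itgb1 too, a difference of the gene and one of its chromosome was not told apart.

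Markers of other cells that express contractile genes were read beside these results. Of 7 vascular smooth muscle and pericyte markers only Mcam was tested. The summed level of the list was 37.4 and 30.3 CPM in knockout cells with TGF-β, 1.55 and 1.02 CPM in untreated knockout cells, 86.6 and 78.5 CPM in parental cells with TGF-β, and 1.11 CPM in each untreated parental library. Mcam made up nearly all of it. Myh11, the smooth muscle myosin, had 1 to 12 counts per library, Rgs5 had 0 to 9, and Kcnj8 was at 0 in all 8.

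Of 7 skeletal and cardiac muscle markers 2 were tested, Acta1 and Actc1, and Myod1 and Myog were at 0 in all libraries. The list summed to 6.17 and 3.88 CPM in treated knockout cells, 1.79 and 1.25 CPM in untreated knockout cells, 25.4 and 23.8 CPM in treated parental cells and 2.64 CPM in each untreated parental library. Of 5 basal markers 3 were tested, and Trp63 had 0 to 1 counts. With TGF-β 2 of the 3 rose and 1 fell in each line. Over all genes 20.9% rose and 20.6% fell in knockout cells, and 21.3% and 21.2% in parental cells. Krt14, among those that rose, changed by 5.01 in knockout cells and 3.80 in parental cells. The basal list summed to 12.0 and 9.81 CPM in treated knockout cells and 3.57 and 5.06 CPM in untreated ones. In parental cells it summed to 6.41 and 6.85 CPM with TGF-β, against 5.80 and 5.97 CPM without it.

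Of 4 endothelial markers 2 were tested. The list summed to 8.24 and 6.71 CPM in treated knockout cells, 0.821 and 0.510 CPM in untreated knockout cells, 76.5 CPM in each treated parental library, and 1.58 and 1.29 CPM in untreated parental cells. Cdh5 made up most of the treated sums, and Kdr and Tek had 0 to 5 and 0 to 1 counts. Of 5 immune markers 2 were tested, Ptprc had 0 to 5 counts, and Adgre1 and Cd3e were at 0. The immune list summed to 17.1 and 18.3 CPM in treated knockout cells, 32.5 and 32.9 CPM in untreated knockout cells, 28.0 and 30.4 CPM in treated parental cells and 32.3 and 32.6 CPM in untreated parental cells. Beyond these counts, the part of other cells in the changes of the contractile genes was not tested.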

How the data were processed

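The authors deposited 1 file of raw counts per gene for each of the 8 libraries. The submitters' processing notes name STAR 2.7.1a, featureCounts 1.6.2 and the GRCm38 build. Neither the annotation release nor the strandedness of counting is stated there. A deposited normalized table was not used. Counts were fitted with edgeR 4.0.16 (R 4.3.3) after filterByExpr (minimum count 10; 14641 genes holding 99.9% of counts) and TMM scaling, as a quasi-likelihood fit with 1 mean per group over all 8 libraries and 4 residual degrees of freedom. Benjamini-Hochberg adjustment ran over all tested genes in each of 5 contrasts, and standard errors were derived from the F statistic. The test was checked on simulated counts. DESeq2 1.42.0, other scalings and filters, a replicate block and left-out libraries were alternatives. Exon overlap and shared 50-base stretches came from GENCODE M21. The 38 genes and all lists were chosen with earlier results of these data known. Values in every library are given for the genes called in the difference of responses, for up to 8 called genes with the largest change in each other contrast, and for the actins and Srf. Of the other lists, up to 4 called genes a contrast are named. 1 further list is not reported here.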

Additional observations from a re-analysis of the deposited data

Results flagged for a closer look

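The outlier check needs 4 samples a group, so with 2 libraries per group it was not applied. What brought the following genes up is that their response to TGF-β differed between the lines in the interaction test of edgeR (adjusted p under 0.05 over 14641 genes). Each value is the log2 change in knockout cells minus that in parental cells, and no explanation was tested.

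Among the 38 genes the differences were -2.11 for Cnn1, -0.85 for Tpm1 and -0.59 for Cnn2. Among other contractile and SRF target genes, Synpo gave -2.44, with a fall in knockout cells and a rise in parental cells. Fhl1, a LIM protein of muscle, gave -2.98 and had 0.354 and 0.443 CPM in knockout cells with TGF-β, against 7.53 and 8.58 CPM in parental cells with TGF-β. Sorbs2, an adhesion adaptor, gave -1.14, falling by 0.95 in knockout cells and changing by 0.19 in parental cells without passing. The talin gene Tln2 gave -0.68.

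Of regulators, Elk3 gave 0.73 and Ier2 0.84. Of the marker genes, Mcam gave -1.77, Csf1r -1.67, Krt7 -0.65 and Krt8 0.65. Csf1r stood at 7.28 and 6.43 CPM in knockout cells with TGF-β, against 21.6 and 23.1 CPM in parental cells with TGF-β.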

How the results depend on the processing

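No listed gene changed sign with a call under any alternative, and the counts of genes of the list that rose or fell with TGF-β in either line stayed within 1.5 times. The replicate numbers are not said to share anything. With a replicate block 11 genes of the list were lower untreated (6 without the block) and 6 responded less in knockout cells (3 without). Calls over all genes also rose with the block. In either direction 2659 genes were called untreated (2000 without) and 679 differed in response (352 without). The deviations of the first replicates correlated at 0.46 between the 2 untreated groups and at 0.02 to 0.21 between the other pairs of groups. With 2 libraries per group this was not taken as pairing, and a shared replicate effect in the untreated comparison was not tested further. Without a count filter 12 genes of the list were lower untreated and 7 responded less. Over all genes 2490 were then called untreated and 855 differed in response. A fit of only the 4 libraries compared gave 3 genes of the list lower untreated and 1111 genes called in either direction over all genes (2000 with 8 libraries). DESeq2 gave 5 responding less, beside 482 genes differing in response in either direction over all genes. Leaving out 1 library at a time, genes of the list lower in knockout cells with TGF-β ran from 10 to 22 (20 with all libraries), and genes called in either direction over all genes from 1188 to 2922 (2618). Genes of the list that responded less ran from 1 to 4, and genes differing in response in either direction from 120 to 421 over all genes. The cause was not tested, though each such fit has 1 library fewer. A lone library is assumed to vary like the other groups. Added after seeing the data, leaving out 6 genes with overlapping or shared sequence (Tagln, Cnn3, Tpm3, Vcl, Actg1 and Ilk) gave 23 risers with TGF-β in parental cells and 16 lower in treated and 4 in untreated knockout cells. The counts without Actg2, Des and Myh10 were also added then. Low counts limit the untreated values of Acta2, Actg2, Des and Myh10.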

Other observations

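Several genes that cells usually express at high levels had few counts in every library. Gapdh had 151 to 348 counts per library, beside 51676 to 96558 for Actb. The regulatory light chain gene Myl12b was listed under more than 1 identifier for its symbol and was left out of the lists. Among muscle and adaptor genes outside the 38, Pdlim3 and Nexn had 0 to 1 counts, Pdlim1 0 to 6 and Pdlim4 0 to 7. Of the 8 genes with an exact CArG box, Myl9 had 2 to 9 counts per library and Actg1 30 to 96, while Vcl had 4214 to 11521 and Cnn2 1523 to 5622.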
